A study of Mus musculus with 6 samples.

Results

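The neutrophil granule genes described here are 10 genes of the deposited expression table, taken by symbol and sorted by granule class: Mpo, Elane, Prtn3 and Ctsg of the primary granules, Ltf, Camp, Ngp and Lcn2 of the secondary granules, and Mmp8 and Mmp9 of the tertiary granules. All 10 were found, each on a single row, among 47719 genes. RNA was taken from spinal cord cells that CD11b beads had bound, in Biozzi ABH mice, an inbred strain, aged 3 months. The ECS group had 3 daily electroconvulsive stimulations and was killed on the following day, and the control animals are called naive in one label and sham treated in another. Each group had 3 libraries and each library pooled the cells of 5 mice, so n counts pools and a p-value measures the spread between pools. CD11b beads select neutrophils, monocytes and macrophages of meninges and blood together with microglia, and whether the animals were perfused was not stated in the labels.

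Neutrophils fill their granules in the bone marrow in the order in which they mature. Primary (azurophil) granules are loaded in promyelocytes with myeloperoxidase and serine proteases, secondary (specific) granules in myelocytes and metamyelocytes with lactoferrin and antimicrobial peptides, and tertiary (gelatinase) granules in band cells with matrix metalloproteinases. Each class of transcripts is high at its own stage and declines later, so that circulating neutrophils carry the proteins but little mRNA of the primary class.

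Levels are given in FPKM, that is, fragments corrected for transcript length and for library size, which permits comparison between genes of different length. The sum per library was between 887144 and 926323 FPKM in ECS and between 729831 and 1009665 FPKM in control. The number of genes above 0 was between 11427 and 14900 in ECS and between 12987 and 14347 in control, and ECS 1 had the fewest. FPKM does not keep the number of reads, so the depth behind each value is unknown. None of the 10 genes was listed at 0 in any library. Microglial genes were abundant in every library: the summed level of 8 microglia markers was between 4905 and 7491 FPKM in ECS and between 6251 and 8249.6 FPKM in control, none of them at 0.

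The genes lie in few places of the genome (GRCm38, positions of GENCODE M21). Prtn3 (ENSMUSG00000057729, chromosome 10, 79874476 to 79883174, plus strand) ends 3.07 kb before Elane (ENSMUSG00000020125, chromosome 10, 79886247 to 79888215, plus strand), which encodes neutrophil elastase. Camp (ENSMUSG00000038357, chromosome 9, 109847379 to 109849617, minus strand), Ngp (ENSMUSG00000032484, chromosome 9, 110419747 to 110423012, plus strand) and Ltf (ENSMUSG00000032496, chromosome 9, 111019271 to 111042767, plus strand) lie within 1.20 Mb of each other. Mmp8 (ENSMUSG00000005800, chromosome 9, 7558456 to 7568485, plus strand) is on the same chromosome but far from them. Mpo (ENSMUSG00000009350) is on chromosome 11 (87793581 to 87804413, plus strand), Ctsg (ENSMUSG00000040314) on chromosome 14 (56099881 to 56102574, minus strand), and Lcn2 (ENSMUSG00000026822, 32384633 to 32388252, minus strand) and Mmp9 (ENSMUSG00000017737, 164940780 to 164955850, plus strand) on chromosome 2. Mpo overlaps the antisense gene Gm11505 and Prtn3 overlaps Plppr3 on the other strand. The locus that the authors deposited for Prtn3 starts further upstream than in GENCODE M21, at 79851381. Whether counting used strand was not known, so reads of each such pair cannot be told apart.

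Upstream sequences are shown for the 4 primary genes, which were highest in the same 3 libraries, and for Ltf and Ngp, the secondary genes with the smallest unadjusted p. They were taken from RefSeq (GRCm38.p6), where 9 of the 10 genes matched, all but Mmp9. Each is printed 5′ to 3′ on the strand of its gene. It starts 250 bases before the RefSeq start of the gene and stops where a GENCODE transcript begins, which is why the lengths differ. The Prtn3 stretch lies directly upstream of the coding transcript and inside an intron of a longer, non-coding GENCODE transcript of Prtn3, and the others lie upstream of their gene. Capitals mark matches to GAGGAAG, a core of sites of the myeloid factor PU.1, to TTNNGNAA, a core of C/EBP sites, or to TGTGGT, a core of RUNX sites, on either strand.
Mpo (GRCm38.p6, chr11:87793534-87793580, plus strand): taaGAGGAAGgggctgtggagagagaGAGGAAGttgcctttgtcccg
Elane (GRCm38.p6, chr10:79886062-79886246, plus strand): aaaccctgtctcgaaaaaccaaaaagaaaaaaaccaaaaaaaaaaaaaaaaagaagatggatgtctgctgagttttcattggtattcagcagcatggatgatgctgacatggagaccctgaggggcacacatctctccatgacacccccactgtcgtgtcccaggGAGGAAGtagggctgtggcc
Prtn3 (GRCm38.p6, chr10:79879417-79879613, plus strand): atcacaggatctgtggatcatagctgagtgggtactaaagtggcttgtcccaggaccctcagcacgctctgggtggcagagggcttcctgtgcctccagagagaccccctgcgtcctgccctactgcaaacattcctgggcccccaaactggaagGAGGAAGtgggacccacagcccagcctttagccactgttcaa
Ctsg (GRCm38.p6, chr14:56102575-56102824, minus strand): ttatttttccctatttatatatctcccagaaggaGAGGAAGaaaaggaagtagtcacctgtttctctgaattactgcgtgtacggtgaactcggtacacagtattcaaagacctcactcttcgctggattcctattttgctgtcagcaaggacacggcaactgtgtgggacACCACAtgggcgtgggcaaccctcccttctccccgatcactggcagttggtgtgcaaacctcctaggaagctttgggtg
Ltf (GRCm38.p6, chr9:111019042-111019270, plus strand): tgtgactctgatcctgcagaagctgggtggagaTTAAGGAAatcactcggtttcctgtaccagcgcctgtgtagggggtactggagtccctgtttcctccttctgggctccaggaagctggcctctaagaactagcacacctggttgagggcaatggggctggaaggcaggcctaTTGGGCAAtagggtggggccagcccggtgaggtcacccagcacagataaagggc
Ngp (GRCm38.p6, chr9:110419558-110419746, plus strand): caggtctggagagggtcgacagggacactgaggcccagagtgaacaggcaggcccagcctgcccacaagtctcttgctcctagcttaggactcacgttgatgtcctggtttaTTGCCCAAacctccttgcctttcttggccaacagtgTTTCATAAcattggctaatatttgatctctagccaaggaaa
In the 250 bases, GAGGAAG was present in all 4 primary genes, and in 6 of the 9 genes with a sequence (beside the primary ones, Lcn2 and Mmp8). Of 32851 RefSeq windows of the same length, 10.6% hold it. TTNNGNAA was present in none of the 4 primary genes and in Ltf, Ngp, Lcn2 and Mmp8, 4 of the 9, and 36.8% of all windows hold it. TGTGGT was present in Ctsg alone, as its reverse complement, against 14.0% of all windows. One more match to TTNNGNAA in Ngp and the GAGGAAG match in Lcn2 lie in bases not printed. Camp held no match to any of the 3 motifs, and no matches overlapped. A match describes the letters in the window and not the binding of a factor.

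The secondary class contained the most abundant of the 10 transcripts in every library. Over the 6 libraries, Ngp averaged 5774 FPKM and ranked between place 14 and place 23 among all genes of a library. Lcn2 averaged 3546 FPKM (places 19 to 37) and Ltf 1302 FPKM (places 40 to 178). This order, Ngp above Lcn2 above Ltf above the other 7 genes, held in all 6 libraries. Prtn3 averaged 298 FPKM and Mmp8 292 FPKM, and which of them was higher differed between libraries. Mpo followed at 189 FPKM, below Mmp8 in every library. Camp (128 FPKM), Mmp9 (126 FPKM) and Elane (102 FPKM) swapped places between libraries, and Mpo also swapped with Camp and with Mmp9. Ctsg was the lowest in every library, at 10.1 FPKM. Together the 10 genes made up 0.824% to 1.35% of the summed FPKM of a library in ECS and 1.36% to 1.85% in control.

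**Figure D1:**
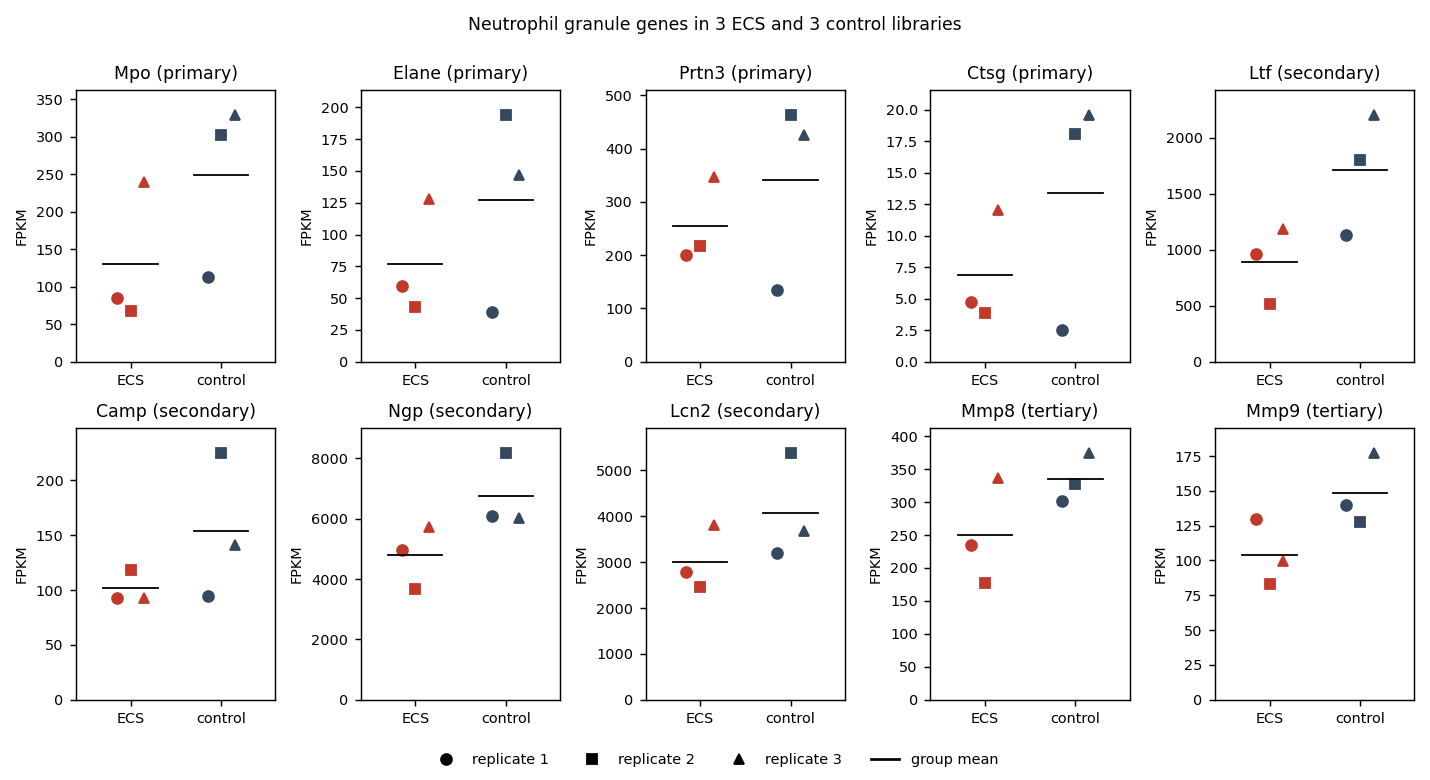
FPKM of each granule gene in 3 ECS (red) and 3 control (dark) libraries; marker shapes give the replicate number, horizontal bars the group means, and each vertical axis starts at 0. Primary genes are high in ECS 3, control 2 and control 3 and low in the other libraries, and Ngp is the gene whose groups do not overlap.

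All 10 genes had lower mean values in ECS than in control, and none passed the test. The comparison asked which transcripts of CD11b-positive cells differ after repeated seizures, and it was tested with limma on log2(FPKM + 1) over the 11315 genes whose mean reached 1 FPKM. Every one of the 10 genes passed that filter. At an adjusted p under 0.05, 0 of the 10 genes and 0 of 11315 genes (0.0%) were called, and each of the 10 had a limma adjusted p of 1.00. An unadjusted p under 0.05 was reached by 414 genes (3.66%), of which 220 (1.94%) were lower in ECS, and by 1 of the 10, Ltf. The groups did not overlap for 848 genes (7.49%), of which 429 (3.79%) were lower in every ECS library, and of the 10 this held for Ngp alone. Over all genes tested 50.8% had a log2 fold change below 0, and the median was -0.01. Over the 10 granule genes it was 10 of 10, with a median of -0.51. A log2 fold change of -0.5 or lower was seen in 7 of the 10 and in 20.5% of all genes tested. The genes were chosen with earlier results of these data known, so that their shared direction is a description. In bulk RNA, fewer cells of a type and less RNA per cell cannot be told apart.

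The primary class carries the enzymes of the earliest granules, and its values split across the groups. Mpo encodes myeloperoxidase, which forms hypochlorous acid. Its level was 85.1, 67.3 and 239 FPKM in ECS 1, 2 and 3, and 113, 303 and 329 FPKM in control 1, 2 and 3. ECS 3 lay with control 2 and control 3, and control 1 lay with ECS 1 and ECS 2. The log2 fold change of Mpo was -1.01 ± 0.58 (SE), with a 95% interval of -2.38 to 0.36. Elane was at 59.3, 42.9 and 128 FPKM in ECS 1, 2 and 3, and at 39.5, 194 and 147 FPKM in control 1, 2 and 3. Control 1 was the lowest of all libraries, and all ECS values lay within the range of the controls. The log2 fold change of Elane was -0.59 ± 0.65 (SE).

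Prtn3, which encodes proteinase 3, was at 200.6, 217 and 346 FPKM in ECS 1, 2 and 3, and at 134, 464 and 425 FPKM in control 1, 2 and 3. All 3 ECS libraries lay between control 1 and control 3. For Prtn3 the log2 fold change was -0.27 ± 0.50 (SE), with a 95% interval of -1.44 to 0.90. Without control 2 it was 0.045, on the other side of 0. Ctsg encodes cathepsin G, a protease that mast cells also make. It was at 4.76, 3.88 and 11.99 FPKM in ECS 1, 2 and 3, and at 2.55, 18.0 and 19.6 FPKM in control 1, 2 and 3. It had the same order of high and low libraries as Elane but for the exchange of control 2 and control 3. For Ctsg the log2 fold change was -0.64 ± 0.76 (SE), with a 95% interval of -2.43 to 1.14. Of 7 mast cell and basophil markers Mcpt4 was at 0 in all libraries, and Cpa3, Tpsb2, Cma1, Ms4a2 and Fcer1a were at 0 in some. Their summed level was between 11.3 and 25.1 FPKM in ECS and between 23.8 and 28.0 FPKM in control, most of it from Mcpt8, a basophil gene, and their part in the values of Ctsg was not tested.

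The secondary class holds antimicrobial and metal-binding proteins and had the same direction. Ltf encodes lactoferrin, which binds iron. It was at 964, 519 and 1185 FPKM in ECS 1, 2 and 3, and at 1130.4, 1804 and 2207 FPKM in control 1, 2 and 3. Among these, ECS 3 was above control 1, so that the groups overlapped in a single pair. Ltf had a log2 fold change of -0.97 ± 0.38 (SE), with a 95% interval of -1.87 to -0.08 and a limma unadjusted p of 0.0363. Before adjustment for 11315 tests, this interval alone of the 10 lay below 0 in the fit reported, and this was not stable. It held 0 in 7 of 20 alternatives, among them those without ECS 1, ECS 2, control 2 or control 3. The interval of Ngp lay below 0 under both rescalings to the same total and under quantile normalization, and that of Lcn2 under quantile normalization. Without control 1 the intervals of all 4 primary genes and Camp lay below 0, as did those of Mpo and Mmp8 without ECS 3 and that of Mmp9 without ECS 1 or with library weights. Ngp encodes neutrophilic granule protein, a relative of the cathelicidins known from the mouse. It was at 4948, 3664 and 5739 FPKM in ECS 1, 2 and 3, and at 6092, 8184 and 6014 FPKM in control 1, 2 and 3. The highest ECS library was just below the lowest control library. The log2 fold change of Ngp was -0.51 ± 0.25 (SE), with a 95% interval of -1.08 to 0.07.

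Lcn2 encodes lipocalin 2, which withholds iron from bacteria by binding siderophores and is also made by reactive astrocytes. It was at 2779, 2449.6 and 3807 FPKM in ECS 1, 2 and 3, and at 3189.7, 5382 and 3669 FPKM in control 1, 2 and 3. ECS 3 was above control 1 and control 3, and the log2 fold change was -0.43 ± 0.28 (SE). The sum over 4 astrocyte markers was between 4.90 and 7.71 FPKM in ECS and between 3.77 and 6.09 FPKM in control. Gfap, Aqp4 and Aldh1l1 were at 0 in some libraries, and Slc1a3, at 7.71, 4.60 and 3.48 FPKM in ECS 1, 2 and 3 and at 4.20, 3.66 and 2.09 FPKM in control 1, 2 and 3, was above 0 in all. The part of astrocytes in the values of Lcn2 was not tested. Camp encodes the mouse cathelicidin, an antimicrobial peptide. It was at 93.1, 119 and 92.7 FPKM in ECS 1, 2 and 3, and at 94.4, 225 and 141 FPKM in control 1, 2 and 3. Control 1 lay with ECS 1 and ECS 3, and control 2 stood above all others. Camp had a log2 fold change of -0.51 ± 0.35 (SE). The level of Ngp was between 30.9 and 61.9 times that of Camp in ECS libraries and between 36.3 and 64.6 times in control libraries. The level of Ngp was between 1.50 and 1.78 times that of Lcn2 in ECS and between 1.52 and 1.91 times in control, the steadiest of the 10 pairs of granule genes whose ratio was computed.

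The tertiary class had lower mean values in ECS as well. Mmp8 encodes neutrophil collagenase. It was at 235, 177 and 337 FPKM in ECS 1, 2 and 3, and at 302, 328 and 375 FPKM in control 1, 2 and 3. ECS 3 lay between control 2 and control 3, and the other ECS libraries lay below all control libraries. Mmp8 had a log2 fold change of -0.47 ± 0.28 (SE). Mmp9 encodes gelatinase B, which activated macrophages make as well. It was at 129.9, 83.4 and 99.5 FPKM in ECS 1, 2 and 3, and at 139.8, 128 and 177 FPKM in control 1, 2 and 3. ECS 1 exceeded control 2 by a small margin, and otherwise ECS lay below control. Mmp9 had a log2 fold change of -0.51 ± 0.27 (SE), with a 95% interval of -1.14 to 0.11. The summed level of 6 markers of border-associated macrophages was between 199 and 336 FPKM in ECS and between 88.6 and 142 FPKM in control, and none was at 0. Cbr2 and Clec10a made up most of it in every library but control 3, where F13a1 was the highest of the 6 at 32.8 FPKM. Cbr2 and Clec10a were 2 of 6 that did not overlap between groups, against 7.49% of all genes tested. The log2 fold changes of Mrc1 and F13a1 were -0.03 and -0.01. The part of such cells in the values of Mmp9 was not tested.

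**Figure D2:**
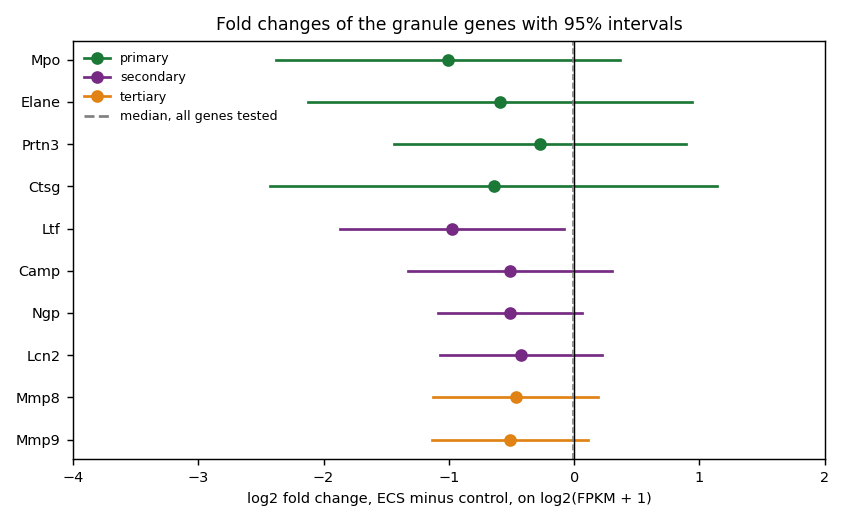
log2 fold change of each granule gene, ECS minus control, with its 95% interval from limma; colours give the granule class and the dashed line the median of all genes tested. All 10 points lie below 0, the intervals of primary genes are the widest, and the interval of Ltf alone ends below 0.

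By class, the median log2 fold change was -0.62 for the 4 primary genes, -0.51 for the 4 secondary genes and -0.49 for the 2 tertiary genes. The primary value rested on single libraries. It was -1.38 without control 1 and -1.05 without ECS 3, but -0.31 without ECS 2, -0.20 without control 2 and -0.27 without control 3. The secondary median was -0.29 without control 2, and the tertiary median was -0.31 without ECS 2. Single genes moved in the same way. With 1 library left out, Mpo lay between -1.56 (without ECS 3) and -0.65 (without ECS 2), Elane between -1.28 (without control 1) and -0.15 (without control 2), Prtn3 between -0.84 (without control 1) and 0.045 (without control 2), and Ctsg between -1.47 (without control 1) and -0.20 (without control 3). Among secondary genes, Ltf lay between -1.25 (without control 1) and -0.63 (without ECS 2), Camp between -0.82 (without control 1) and -0.19 (without control 2), Ngp between -0.65 (without ECS 3) and -0.33 (without ECS 2), and Lcn2 between -0.61 (without ECS 3) and -0.21 (without control 2). Mmp8 lay between -0.71 (without ECS 3) and -0.24 (without ECS 2), and Mmp9 between -0.68 (without ECS 1) and -0.37 (without ECS 2). With any library other than those named for the class medians left out, the secondary and tertiary medians stayed within 1.5 times of their value over 6 libraries.

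In FPKM the classes differed in how far they spread over the 6 libraries. The highest library was 3.45 to 7.69 times the lowest for primary genes, 2.20 to 4.25 times for secondary genes and 2.12 to 2.13 times for tertiary genes. The order of secondary and tertiary genes depended on the scale: as a share of the summed FPKM of a library, the highest was 3.59 times the lowest for primary, 2.18 times for secondary and 2.59 times for tertiary genes. Within ECS the SD of the class mean on the log2 scale was 0.73 for primary, 0.27 for secondary and 0.32 for tertiary genes. Within control it was 1.12, 0.39 and 0.19, so that the order of secondary and tertiary genes also differed between groups. For Elane, Prtn3 and Ctsg both the highest and the lowest library were controls, with ratios of 4.91, 3.45 and 7.69. Their ratios within ECS were 2.98, 1.73 and 3.09. Mpo differed from them, with a ratio of 3.55 within ECS and 2.91 within control. Control 2, control 3 and ECS 3 were the 3 highest libraries for 4 of 4 primary genes, for 2 of 4 secondary genes (Ltf and Lcn2) and for Mmp8. Control 1 was the lowest library for Elane, Prtn3 and Ctsg but for no secondary or tertiary gene. ECS 2 was the lowest for Mpo, Ltf, Ngp, Lcn2, Mmp8 and Mmp9.

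**Figure D3:**
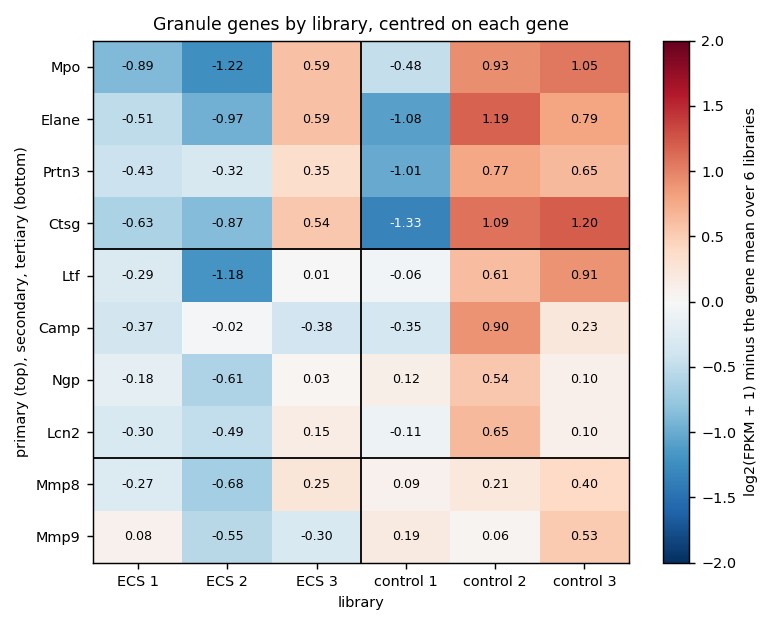
log2(FPKM + 1) of each granule gene minus its own mean over the 6 libraries (colour and printed value), with primary genes at the top and ECS libraries at the left. The 4 primary genes are below their mean in ECS 1, ECS 2 and control 1 and above it in ECS 3, control 2 and control 3, and most secondary and tertiary genes deviate less, Ltf in ECS 2 (-1.18) being the farthest of them.

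The gap between the classes varied within each group as well. The mean log2(FPKM + 1) of primary genes was 5.63, 5.40 and 6.76 in ECS 1, 2 and 3, and 5.27, 7.24 and 7.17 in control 1, 2 and 3. That of secondary genes was 10.05, 9.76 and 10.29 in ECS 1, 2 and 3, and 10.23, 11.01 and 10.66 in control 1, 2 and 3. That of tertiary genes was 7.46, 6.94 and 7.53 in ECS 1, 2 and 3, and 7.69, 7.69 and 8.02 in control 1, 2 and 3. Secondary exceeded primary genes by 4.42, 4.36 and 3.52 in ECS 1, 2 and 3, and by 4.96, 3.77 and 3.50 in control 1, 2 and 3, on the log2 scale. The mean gap was 4.10 ± 0.50 in ECS and 4.07 ± 0.78 in control (SD, n = 3 each), a difference of 0.02, below the spread in either group. Tertiary exceeded primary genes by 1.38 ± 0.55 in ECS and 1.24 ± 1.04 in control (SD, n = 3 each). Secondary exceeded tertiary genes by 2.72 ± 0.12 in ECS and 2.84 ± 0.42 in control (SD, n = 3 each).

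Red cell transcripts differed strongly between libraries, and the libraries with the least beta globin, ECS 3 and control 1, stood on opposite sides for the primary class. Hbb-bs, which encodes a beta globin, was at 34362, 73251 and 619 FPKM in ECS 1, 2 and 3, and at 156, 30923 and 16524 FPKM in control 1, 2 and 3. The alpha globin gene Hba-a1 was at 6510.4 FPKM in ECS 3 and 2059 FPKM in control 1. It was listed at 0 in the other 4 libraries. Hba-a2 was likewise listed at 0 in those 4, which hold the most Hbb-bs. Whether these zeros are levels or missing values is not known, so they give no direction for alpha globin. The sum over 7 red cell genes was 36927, 77318 and 7208 FPKM in ECS 1, 2 and 3. In control 1, 2 and 3 it was 2231, 32810.2 and 17700.1 FPKM, and it was lowest in control 1 and ECS 3. Most of the sum in these 2 libraries came from Hba-a1, so it cannot be set against the sum in the other 4. Between the libraries under 1000 FPKM of Hbb-bs, Mpo, Elane, Prtn3 and Ctsg were 2.11, 3.23, 2.57 and 4.71 times as high in ECS 3 as in control 1. Ltf, Camp, Ngp and Lcn2 were at 1.05, 0.982, 0.942 and 1.19 times, and Mmp8 and Mmp9 at 1.12 and 0.712 times. This pair has no replicate, so that no test is given. Among the other 4 libraries, mean levels in ECS 1 and ECS 2 were between 0.230 and 0.470 times those of control 2 and control 3 for primary genes, between 0.370 and 0.607 times for secondary genes and 0.586 and 0.699 times for Mmp8 and Mmp9. This split was made after seeing the data. It sets aside ECS 3 and control 1, where primary genes lay above and below their mean, against the direction of their group. A larger difference in the primary class follows from that choice. Without control 1 and ECS 3 the class medians were -1.81, -0.76 and -0.65 for primary, secondary and tertiary genes, and no gene of the 10 passed the test. With Hbb-bs as a covariate they were -0.74, -0.57 and -0.47. The part of red cell content in these differences was not tested further.

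**Figure D4:**
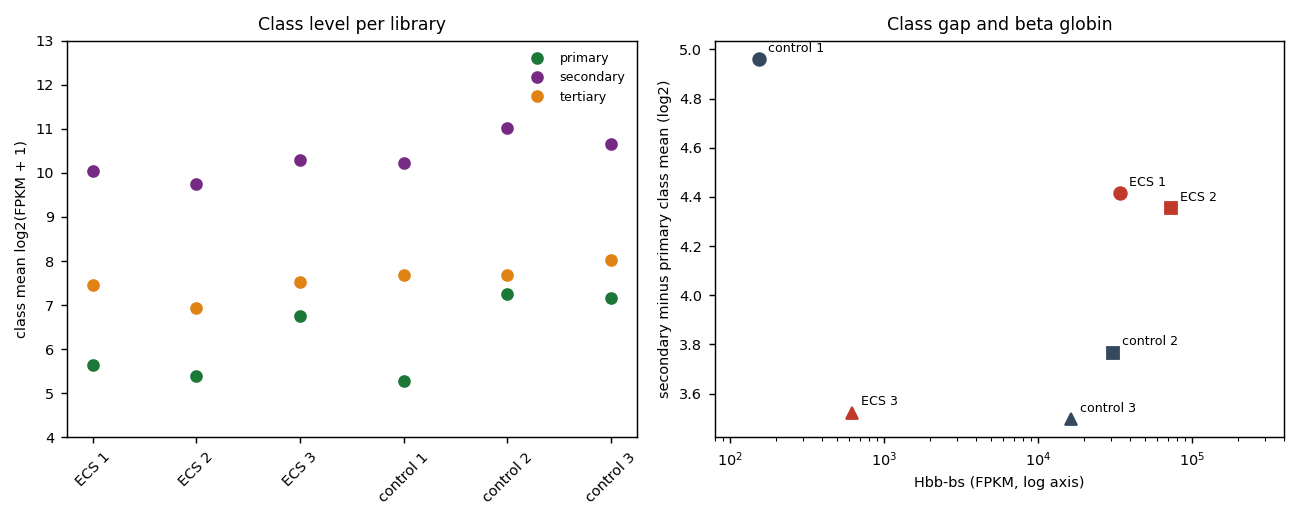
Left, mean log2(FPKM + 1) of primary (green), secondary (purple) and tertiary (orange) granule genes in each library, ECS at the left. Right, the secondary minus primary gap against Hbb-bs (log axis) for ECS (red) and control (dark) libraries: control 1 at 4.96 and ECS 3 at 3.52 have the lowest Hbb-bs and lie near opposite ends of the gap.

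Other genes of the same granules were examined as lists and none was called. All 8 further secondary granule genes were tested, 6 of them lower in ECS by their log2 fold change, whose median was -0.37. Pglyrp1, a peptidoglycan recognition protein gene, was at 384, 351 and 433 FPKM in ECS 1, 2 and 3, and at 397, 611 and 620 FPKM in control 1, 2 and 3. The surface receptor gene Cd177 was at 141 ± 42.6 FPKM in ECS and 209 ± 46.0 FPKM in control, and the chitinase-like gene Chil3 at 466 ± 245 FPKM in ECS and 681 ± 374 FPKM in control (SD, n = 3 each). Cyba, a subunit gene of the NADPH oxidase that microglia also express, lay higher in ECS, at 251 ± 25.4 FPKM in ECS and 220.4 ± 40.0 FPKM in control (SD, n = 3 each). The single gene with an unadjusted p under 0.05 was Olfm4, a marker of a subset of neutrophils, which the rule for named genes does not cover and which is named because of its values. Olfm4 was at 48.9, 48.5 and 55.3 FPKM in ECS 1, 2 and 3, and at 78.3, 82.0 and 96.7 FPKM in control 1, 2 and 3, so that its groups did not overlap. The log2 fold change was -0.74 ± 0.23 (SE), and limma's adjusted p was 1.00. Among all genes tested, 3.66% had a limma unadjusted p under 0.05 and 7.49% did not overlap between groups.

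Of 6 further primary granule genes 5 were tested and 4 lay lower in ECS, their median log2 fold change being -0.19. The most abundant of them, Srgn for the proteoglycan serglycin, is expressed in many myeloid cells and was at 1680.0 ± 548 FPKM in ECS and 1543 ± 924 FPKM in control (SD, n = 3 each). Ctsc, whose product activates the granule serine proteases, was at 99.5 ± 17.1 FPKM in ECS and 104 ± 23.3 FPKM in control (SD, n = 3 each). Ms4a3, a gene of granulocyte and monocyte precursors, was listed at 0, 1.50 and 10.4 FPKM in ECS 1, 2 and 3, and at 3.17, 11.6 and 2.36 FPKM in control 1, 2 and 3. Of 3 further tertiary granule genes 2 had a log2 fold change below 0. The metalloproteinase gene Mmp25 was at 28.4 ± 9.83 FPKM in ECS and 40.4 ± 6.99 FPKM in control (SD, n = 3 each). Slc11a1, a metal transporter gene that macrophages share, was at 148 ± 7.72 FPKM in ECS and 119 ± 11.5 FPKM in control (SD, n = 3 each). Slc11a1 was higher in every ECS library than in every control library, at a log2 fold change of 0.32 ± 0.21 (SE). It was 1 of 3 in its list, and the groups did not overlap for 7.49% of all genes tested.

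Genes listed for mature neutrophils were split in direction, and which of the bead-bound cells their transcripts came from was not tested. Of 15 tested genes 8 had a log2 fold change below 0 and 7 above 0, with a median of -0.08, while by mean FPKM 10 were lower and 5 higher in ECS. S100a9, a calprotectin subunit gene, was at 1834, 2018 and 1505 FPKM in ECS 1, 2 and 3, and at 1787, 5282 and 2839 FPKM in control 1, 2 and 3. S100a8, which encodes its partner, was at 1239 ± 373 FPKM in ECS and 2015 ± 1146 FPKM in control (SD, n = 3 each), and both were highest in control 2. Csf3r, the receptor gene for granulocyte colony stimulating factor, was at 1454 ± 241 FPKM in ECS and 1303 ± 171 FPKM in control (SD, n = 3 each). Retnlg was at 561 ± 88.2 FPKM in ECS and 613 ± 186 FPKM in control (SD, n = 3 each). The gene of this list with an unadjusted p under 0.05 was Clec4d, which encodes a C-type lectin of myeloid cells. It too is named because of its values and not by the rule. Clec4d was at 130.3, 70.3 and 56.2 FPKM in ECS 1, 2 and 3, and at 18.1, 32.3 and 26.3 FPKM in control 1, 2 and 3, higher in every ECS library. Its change was 1.65 ± 0.39 (SE) on the log2 scale, and the adjusted p of limma was 1.00. Clec4d was 1 of 15 in this list. Of all genes tested, 3.66% had a limma unadjusted p under 0.05 and 7.49% did not overlap between groups.

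Transcription factor genes of granulocyte development gave 5 of 8 with a log2 fold change below 0 and a median of -0.10. The most abundant of them are also factors of macrophages. Spi1, which encodes PU.1, was at 697 ± 127 FPKM in ECS and 741 ± 171 FPKM in control, and Cebpb at 459 ± 91.1 FPKM in ECS and 424 ± 100.3 FPKM in control (SD, n = 3 each). Runx1 was at 291 ± 63.7 FPKM in ECS and 288 ± 87.5 FPKM in control (SD, n = 3 each). Cebpe, the factor gene required for secondary granules, is likewise named for its values. It was at 3.81, 3.45 and 6.51 FPKM in ECS 1, 2 and 3, and at 12.7, 5.98 and 9.44 FPKM in control 1, 2 and 3, with overlap between ECS 3 and control 2 and a log2 fold change of -0.88 ± 0.43 (SE). The limma unadjusted p of Cebpe was 0.0769. Gfi1, another factor gene of this list, was lower still at -1.14 ± 0.81 (SE), and it was at 0 in ECS 1.

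Inhibitors of the granule enzymes gave 4 of 6 tested genes with a log2 fold change above 0 and 2 below 0, while by mean FPKM 5 were higher and 1 lower in ECS. Slpi, which encodes an inhibitor of elastase and cathepsin G, was at 672, 1669.7 and 217 FPKM in ECS 1, 2 and 3, and at 46.4, 262 and 209 FPKM in control 1, 2 and 3. ECS 3 lay between control 3 and control 2. Slpi had a log2 fold change of 2.18 ± 0.87 (SE), a limma unadjusted p of 0.0393 and an adjusted p of 1.00. A limma unadjusted p under 0.05 was reached by 1 of 6 genes here and by 3.66% of all genes tested. Serpinb1a, the gene of a serpin that inhibits the same proteases, was at 26.6 ± 8.25 FPKM in ECS and 25.6 ± 8.21 FPKM in control (SD, n = 3 each). Timp2, for an inhibitor of metalloproteinases, was at 166 ± 32.7 FPKM in ECS and 146 ± 5.30 FPKM in control (SD, n = 3 each). Timp3 was at 12.6, 14.1 and 6.12 FPKM in ECS 1, 2 and 3, and at 4.34, 51.8 and 136 FPKM in control 1, 2 and 3. Endothelial markers were likewise high in control 2 and control 3, with a sum over 4 genes of 34.2, 48.2 and 14.5 FPKM in ECS 1, 2 and 3, and 14.0, 56.4 and 78.2 FPKM in control 1, 2 and 3, and their part in the values of Timp3 was not tested. Of the receptors for granule proteins, Slc22a17 for lipocalin 2 was at 3.26 ± 1.21 FPKM in ECS and 5.14 ± 0.0273 FPKM in control, and Lrp1 for lactoferrin at 135 ± 28.9 FPKM in ECS and 107 ± 22.0 FPKM in control (SD, n = 3 each).

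Genes listed as markers of other blood and marrow cells were examined as well, and some of them were near 0 in every library. The sum over 4 eosinophil markers was between 181 and 415 FPKM in ECS and between 265 and 415 FPKM in control, with Ccr3 at 0 in ECS 1. Over 4 monocyte markers it was between 653 and 806 FPKM in ECS and between 804 and 1428 FPKM in control. Most of the monocyte sum came from Ly6c2 and Plac8. Ccr2 was at 0 in ECS 1 and at most at 1.93 FPKM in any library, and Vcan at most at 6.96 FPKM. Over 11 proliferation genes it was between 329.5 and 349.7 FPKM in ECS and between 245 and 429.6 FPKM in control, and 8 of the 11 had a log2 fold change above 0 (median 0.25). Over 5 progenitor genes it was between 68.7 and 174 FPKM in ECS and between 75.6 and 155 FPKM in control. Of these, 5 of the 5 had a log2 fold change below 0 (median -0.26). Most of the progenitor sum in every library came from Cd34, while Kit reached at most 5.84 FPKM and Sox4 at most 3.25 FPKM. The part of these cells in the values of the granule genes was not tested.

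The genes with a profile most like each class were found over 6 libraries among the 4838 genes whose mean reached 10 FPKM, as a description. For the primary class they were Tuba4a (Pearson r = 0.98), Bcl2l13 (0.96), Serbp1 (0.94), Vps29 (0.93) and Gm11505 (0.92), the last being the antisense gene that overlaps Mpo. Pearson r compares the shape of a profile and not the size of its changes. Tuba4a lay only between 188 FPKM (control 1) and 236 FPKM (control 3). Gm11505 was at 32.6, 17.4 and 52.3 FPKM in ECS 1, 2 and 3, and at 29.1, 77.6 and 115 FPKM in control 1, 2 and 3. For the secondary class they were Chil5 (r = 0.98), Amz1 (0.98), Maged1 (0.96), Cd177 (0.95) and Mlxip (0.95). Chil5, a chitinase-like gene, was at 51.7, 37.7 and 52.9 FPKM in ECS 1, 2 and 3, and at 60.1, 99.3 and 74.2 FPKM in control 1, 2 and 3. For the tertiary class they were Cpne3 (r = 0.99), Fundc1 (0.99), Txn2 (0.99), Gemin7 (0.96) and Ddx3x (0.96). All these r values were picked as the highest among 4838 genes and rest on the same 6 libraries, and no p is given for them.

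**Figure D5:**
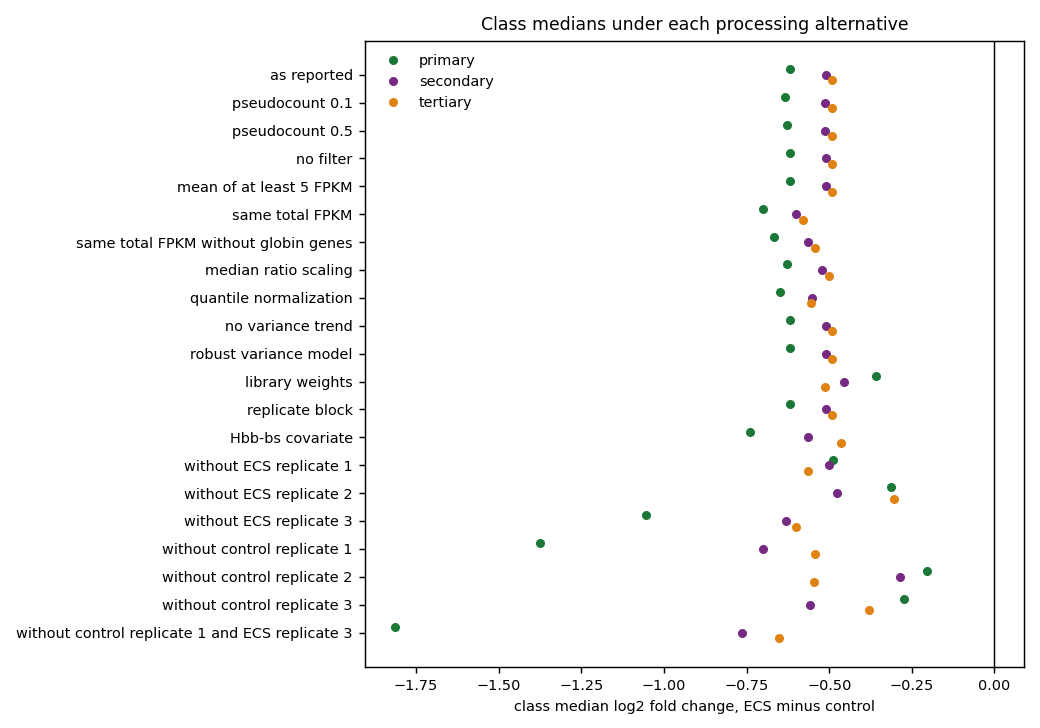
Median log2 fold change of primary (green), secondary (purple) and tertiary (orange) granule genes, ECS minus control, as reported (top) and under each processing alternative. All medians lie below 0; the primary median lies between -1.81 and -0.20 and moves most when libraries are left out.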

How the data were processed

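The authors deposited FPKM values, with a column for each library, made from poly(A) RNA (SENSE kit, per the labels' protocols). The submitters' processing notes name TopHat2, Cufflinks, Cuffnorm and GRCm38. No version, annotation, strand setting or scaling between libraries was stated in the labels. FPKM keeps no read number, so no counting interval is given.

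Columns were matched to libraries through the sample labels. On log2(FPKM + 1), a scale that shrinks changes of low genes, limma 3.58.1 (R 4.3.3) tested ECS minus control with a trended variance, two-sided, over the 11315 genes whose mean reached 1 FPKM. P-values were adjusted after Benjamini and Hochberg, with 0.05 as threshold, and SE and 95% intervals are of that fit. The test was checked on simulated libraries with changes much larger than those of the granule genes. Its power for changes of their size was not measured. The genes, classes and lists were chosen with earlier results of these data known. Named genes are the 10 granule genes, up to 4 genes per list with the highest mean FPKM, and the 5 genes closest to each class in profile. Alternatives covered pseudocount, filter, scaling, variance model, library weights, replicate block, a Hbb-bs covariate and libraries left out.

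Marker lists whose values are not described in the results were B cells (1 of 5 tested with a log2 fold change below 0), T and NK cells (2 of 2), platelets (0 of 1), oligodendrocytes (1 of 4) and neurons (0 tested), with 0 calls.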

Additional observations from a re-analysis of the deposited data

How the results depend on the processing

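Over 20 alternatives limma called 0 genes higher and 0 lower in ECS, while 260 to 557 genes had an unadjusted p under 0.05. Of the 20, 5 alter the set of genes or the variance only and leave each log2 fold change as it is. Under the other 15, the 10 granule genes had a log2 fold change below 0 in 149 of 150 values, the alternatives sharing most libraries. The exception was Prtn3, at 0.045 without control replicate 2, whose values with libraries left out lay between -1.09 and 0.045. The lowest adjusted p of limma for any of the 10 was 0.754. With each replicate left out, the class medians were between -1.38 and -0.20 for primary, between -0.70 and -0.29 for secondary and between -0.60 and -0.31 for tertiary genes. Without control replicate 1 and ECS replicate 3, an alternative chosen after seeing the data, the primary median was -1.81, and with library weights it was -0.36. With a replicate block the medians were -0.62, -0.51 and -0.49 and 0 genes were called. The shared numbers were not treated as pairs, since they are not stated to pair samples. The deviations of ECS and control libraries of equal number correlated at -0.0379, 0.0973 and -0.107. Libraries of unequal number were not compared, so these values do not decide whether the numbers are pairs. Rescaling moved the median of all genes by less than 0.1. Depth is unknown, and with 3 pools per group the 95% interval held 0 for 9 of the 10 genes in the fit reported, and that of Ltf held 0 in 7 of 20 alternatives.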
